A study of Mus musculus with 12 samples.

Results

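Inha, Inhba, Inhbb, Fst, Gja1, Vim, Sparc, Serpine2, Cyp11a1 and Col4a1 are genes of the somatic cells of the ovarian follicle, and their transcripts were read here in libraries made from isolated oocytes. The 10 genes were chosen by name, as a gauge of follicle cell RNA, with earlier results of these data known but no threshold on any value, and all 10 have a row in the table of 24259 genes.

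The libraries came from germinal vesicle oocytes of mice about 3 weeks old, primed with PMSG at 5 IU per mouse and collected 46 h later. WT mice were compared with Lsm14b KO mice, which are homozygous for the tm1a insertion allele of Lsm14b, an oocyte RNA-binding protein gene, in every cell and not in the oocyte alone. A lysate of about 1500 oocytes was spun through a sucrose gradient, and the RNA of fractions 1 to 10 (the RNP pool, not engaged with polysomes) and of fractions 11 to 28 (the polysome pool) was amplified by the Smart-seq2 procedure and sequenced. Each of the 4 groups (WT RNP, KO RNP, WT polysome and KO polysome) holds 3 libraries, and while the study's methods speak in general of independent experiments, it is not stated that these libraries came from separate animals or lysates, so the p-values measure the spread between libraries, which may be technical.

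Granulosa cells surround the oocyte and secrete inhibin, a dimer of the alpha subunit with a beta subunit, while beta subunits paired with each other form activin, which follistatin binds and blocks. Granulosa cells are joined to each other by gap junctions of connexin 43 and to the oocyte largely by junctions of connexin 37, and the layer rests on a basement membrane rich in type IV collagen. Theca cells, outside that membrane, and granulosa cells share the work of steroid synthesis, which starts with side-chain cleavage of cholesterol by CYP11A1.

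Levels are given in FPKM (fragments per kilobase of transcript, scaled for library size), as the authors calculated them. Whether the libraries were also rescaled to each other was not checked. Depth is not stated in the table, but the low values rise in steps of 1 fragment. On the scale of the FPKM values, these steps put the libraries at roughly 4.88 to 7.89 M fragments, which need not be the number sequenced. The oocyte label held, as all 15 oocyte genes of a marker list were at 1 FPKM or more in every library, with a summed level of 8523 FPKM or more. The list itself differed between genotypes. In the polysome pool 6 of its genes were higher and 2 lower in KO, against 5.64% and 4.73% of 9536 genes tested. In the RNP pool 9 were higher and 1 lower, against 10.5% and 10.2% of 9931 genes. The 3 genes of the list with the highest means, the oocyte growth factor genes Gdf9 and Bmp15 and the maternal gene Dppa3, were at 585 FPKM or more in every library. Lsm14b was at 27.4 to 34.6 FPKM in WT RNP and 11.3 to 15.3 FPKM in WT polysome libraries, against 0 to 0.893 FPKM in KO RNP and 0 to 0.260 FPKM in KO polysome libraries. KO polysome library 2 stood apart, since its 10 highest genes took 34.7% of its summed FPKM against 11.6% to 14.7% in the other 11 libraries. The WT polysome libraries agreed least with each other, with correlations of log2(FPKM + 1) of 0.883 to 0.885 against 0.907 to 0.962 in the other groups. They also had the fewest genes above 0, at 10566 to 10814, so their low values and zeros are the least certain. Exact zeros need care in this table, because Gapdh and Ppia, which every cell uses, were also listed below 1 FPKM in all 12 libraries, so a gene at 0 is described only as listed at 0.

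Of the 10 genes, 4 could be tested in the polysome pool, and 3 were higher in KO than in WT oocytes: Inha, Inhba and Gja1. Of all 9536 genes tested there, 5.64% were called higher. Inhba and Gja1 entered that test through the KO libraries alone, and the Inha call was lost under some settings of the test. Inha was also higher in the KO RNP pool than in the WT RNP pool, in a test that it too entered through the KO libraries alone. Serpine2 was the exception in level, at 99.0 to 214 FPKM in all 12 libraries, and no change of it passed the test in any comparison. The other 6 genes were at or near 0 in most libraries and could not be tested. In a bulk lysate, a change in the number of follicle cells, in RNA per follicle cell or in transcripts of the oocyte itself cannot be told apart. The source of these transcripts was not tested.

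**Figure D1:**
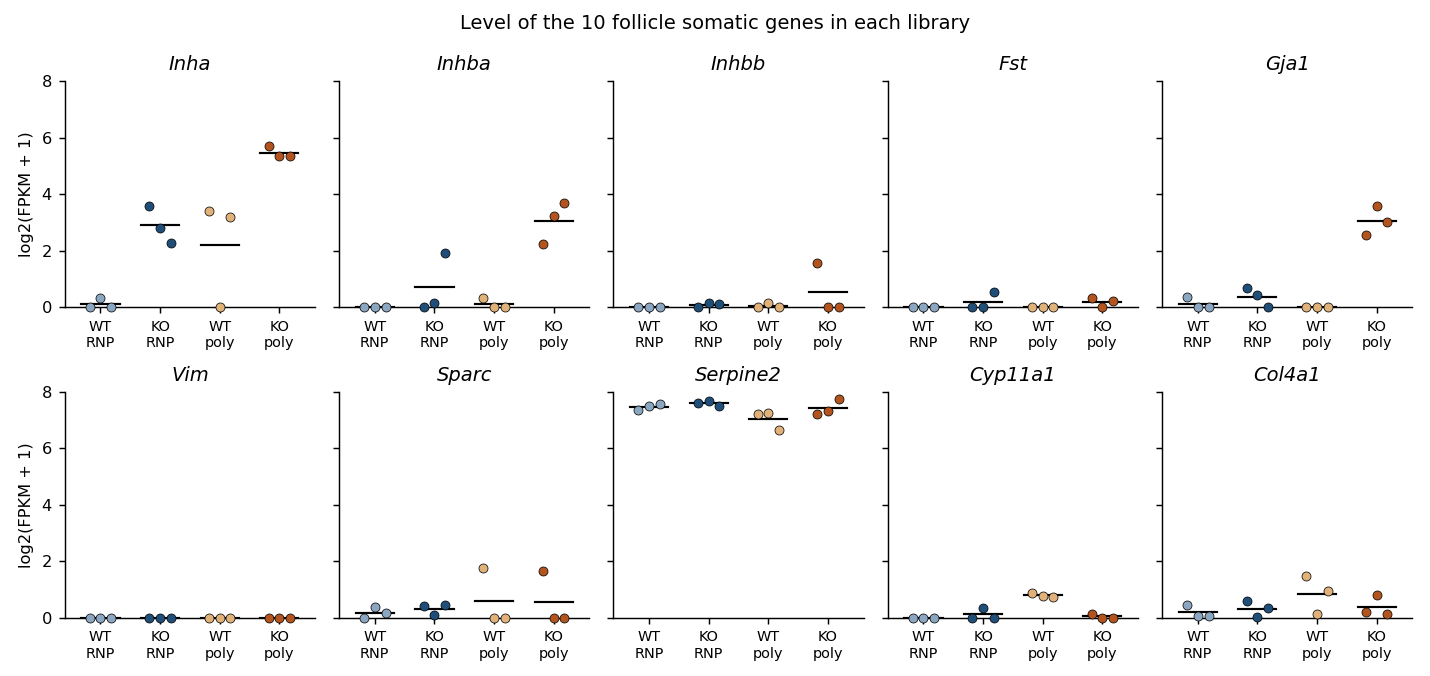
Level of each of the 10 genes in each library, as log2(FPKM + 1) on the vertical axis, by group on the horizontal axis (poly, polysome). Points are libraries 1 to 3 from left to right and bars are group means; Inha, Inhba and Gja1 stand highest in the 3 KO polysome libraries, Serpine2 is high in all 12 libraries and Vim is listed at 0 throughout.

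Inha encodes the inhibin alpha subunit and lies at chr1:75507077-75510366 on the plus strand (GRCm38), overlapping no other annotated gene. In WT RNP libraries 1 to 3 it was at 0, 0.240 and 0 FPKM, and in the WT polysome libraries at 9.58, 0 and 8.11 FPKM. In the KO RNP libraries it reached 11.0, 6.03 and 3.80 FPKM, and in the KO polysome libraries 51.4, 39.4 and 39.5 FPKM. The KO libraries were therefore above the WT libraries in each pool, without overlap, and within the KO the polysome libraries were all above the RNP libraries. WT polysome library 2 went against the other WT polysome libraries, which held an estimated 75.8 and 81.6 fragments of Inha where library 2 held none. In KO polysome libraries the estimate was 246 to 428 fragments.

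Inhba, the beta A subunit of activin A and inhibin A, lies at chr13:16011851-16031621 on the plus strand and overlaps an antisense gene and a processed pseudogene on the minus strand, and since no use of strand in the counting is stated, reads of these cannot be told apart from its own. It was listed at 0 in the 3 WT RNP libraries and at 0.252, 0 and 0 FPKM in the WT polysome libraries. The KO RNP libraries gave 0, 0.112 and 2.79 FPKM, and the KO polysome libraries 3.72, 8.27 and 11.9 FPKM. Thus every KO polysome library was above the other 9 libraries, and KO RNP library 3 was alone in its group in passing 1 FPKM. The beta B subunit gene, Inhbb, did not share this pattern: it was at 1.97 FPKM in KO polysome library 1, was listed at 0 in KO polysome libraries 2 and 3, and did not exceed 0.114 FPKM in any of the other 9 libraries. Follistatin (Fst), the activin antagonist, did not reach 1 FPKM anywhere, with 0.449 FPKM in KO RNP library 3, 0.258 and 0.173 FPKM in KO polysome libraries 1 and 3, and 0 in the remaining 9 libraries.

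Gja1 encodes connexin 43 and lies at chr10:56377330-56402513 on the plus strand, overlapping no other annotated gene. It was at 0.278, 0 and 0 FPKM in the WT RNP libraries and listed at 0 in all 3 WT polysome libraries. In the KO RNP libraries it was at 0.583, 0.353 and 0 FPKM, and in the KO polysome libraries at 4.91, 10.9 and 6.98 FPKM. The KO polysome libraries were above all 9 others, with an estimated 91.9 to 162 fragments each, whereas WT and KO overlapped in the RNP pool.

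Inhba and Gja1 had in common that they were near 0 in WT oocytes of both pools and were measured in all 3 KO polysome libraries, so the 250 bases before their RefSeq start sites (GRCm38.p6, plus strand of each gene, 5′ to 3′) are shown, with matches to 3 motifs in capitals. The motifs, searched on both strands, were the AP-1 site TGANTCA, the TGACG core of the cAMP response element, through which gonadotropin signals act in granulosa cells, and the NR5A site CAAGGTCA.
Gja1, chr10:56377050-56377299: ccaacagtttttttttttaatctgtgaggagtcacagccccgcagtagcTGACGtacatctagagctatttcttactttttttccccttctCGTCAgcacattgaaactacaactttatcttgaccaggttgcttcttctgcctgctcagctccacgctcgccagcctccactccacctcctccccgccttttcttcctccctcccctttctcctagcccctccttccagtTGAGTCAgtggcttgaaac
Inhba, chr13:16011601-16011850: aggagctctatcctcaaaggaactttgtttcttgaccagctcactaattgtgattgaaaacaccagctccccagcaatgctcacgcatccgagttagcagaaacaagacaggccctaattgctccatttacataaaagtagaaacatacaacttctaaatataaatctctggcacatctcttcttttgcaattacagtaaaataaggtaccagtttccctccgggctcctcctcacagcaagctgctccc
The Gja1 window held an AP-1 match 19 bases before the start and matches to the TGACG core 201 and 159 bases before it. The Inhba window held no match to any of the 3 motifs. Among 32851 RefSeq promoters of the same length, 6.75% held the AP-1 letters, 17.8% the TGACG core and 1.33% the NR5A letters. RefSeq had a promoter for 9 of the 10 genes (not Fst), and the only other match was a TGACG core in 1 of the 2 windows given for Cyp11a1. Some of these windows are not upstream of the gene in the GENCODE annotation, since the Inha window held 160 coding bases, and 250 bases of the Vim window and 238 of the Sparc window were exonic. Others lie away from the start. The Inhba locus of the FPKM values begins at chr13:16014474, beyond its window, so the lack of a match there does not cover that start. The Cyp11a1 window with the match ends at chr9:57998023, whereas the GENCODE gene begins at 58006411.

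Serpine2 encodes protease nexin-1, a secreted inhibitor of serine proteases that blocks plasminogen activators, and lies at chr1:79794197-79861180 on the minus strand. Its level was 161, 178 and 188 FPKM in the WT RNP libraries and 195, 201 and 182 FPKM in the KO RNP libraries. In the polysome pool it was 147, 151 and 99.0 FPKM in WT and 149, 158 and 214 FPKM in KO. The group means were 175.5 ± 13.4 (WT RNP), 193 ± 10.1 (KO RNP), 132 ± 29.0 (WT polysome) and 173 ± 35.4 FPKM (KO polysome; SD, n = 3 each). WT and KO overlapped in each pool, and in WT all polysome libraries lay below all RNP libraries. Its mean over the 12 libraries, 168.5 FPKM, ranked 494 of 24259 genes.

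Of the cytoskeletal, matrix and steroidogenic genes, Vim (vimentin, the intermediate filament protein of mesenchymal and granulosa cells) was listed at 0 in all 12 libraries. Sparc, a matricellular glycoprotein, was at 2.39 FPKM in WT polysome library 1 and 2.18 FPKM in KO polysome library 1, and at 0.372 FPKM or less in the other 10. Col4a1, a chain of type IV collagen, was above 0 in every library but passed 1 FPKM only in WT polysome library 1, at 1.79 FPKM. WT and KO libraries overlapped for both genes in each pool.

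Cyp11a1 differed in pattern from all the genes above. It was at 0.838, 0.702 and 0.644 FPKM in the WT polysome libraries, or an estimated 8.66 to 9.98 fragments each, and listed at 0 in the WT RNP libraries. In the KO it was at 0.281 FPKM in RNP library 2, at 0.0971 FPKM in polysome library 1, and listed at 0 in the other 4. The WT polysome libraries were thus above the other 9, the opposite order to Inha, Inhba and Gja1, but at levels below the filter of the test.

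In order of mean FPKM over the 12 libraries, Serpine2 was followed by Inha (14.1), Inhba (2.25), Gja1 (2.00), Sparc (0.478), Col4a1 (0.418), Cyp11a1 (0.213), Inhbb (0.189), Fst (0.0734) and Vim (0). Only Serpine2 was separated from its neighbour in every library, and the ranges of all other neighbours in this order overlapped, apart from Vim, which had no range.

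The comparisons were tested with limma on log2(FPKM + 1) over all genes with 1 FPKM or more in at least 3 libraries of the comparison, with Benjamini-Hochberg adjustment over all of them. Changes on this scale understate those of low genes. In the polysome pool, KO against WT, 4 members could be tested, and 3 were higher in KO at an adjusted p under 0.05, against 5.64% of 9536 genes called higher and 4.73% called lower. Inha was higher by 3.27 (log2 change, SE 0.80, adjusted p = 0.0364, limma), Gja1 by 3.05 (SE 0.45, adjusted p = 0.00611, limma) and Inhba by 2.94 (SE 0.50, adjusted p = 0.0105, limma). The median change of all genes tested was 0.10. Inhba and Gja1 reached 1 FPKM only in the KO libraries, so they could enter the test only by being higher in KO, and their number is no support of its own. Serpine2 had a log2 change of 0.39 (SE 0.21, adjusted p = 0.275, limma). With all libraries kept, the Inha call was lost with a pseudocount of 0.1 (adjusted p = 0.132), no filter (0.115) or no trend (0.0909, limma). It also rested on each KO polysome library, with an adjusted p of 0.107, 0.0981 or 0.0962 (limma) without KO polysome library 1, 2 or 3. Leaving out any 1 of them left no member called, since Inhba and Gja1 then had too few libraries at 1 FPKM to be tested. With a filter of 2 libraries, chosen after seeing the data, 2 members were called without KO polysome library 1 (Inhba and Gja1), and 1 (Gja1) without library 2, the library that stood apart, or without library 3.

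In the RNP pool, KO against WT, 2 members could be tested and 1 was higher in KO, against 10.5% of 9931 genes called higher and 10.2% called lower. Inha was higher by 2.79 on the log2 scale (SE 0.43, adjusted p = 0.00238, limma), though it too passed the filter only through the KO libraries. Without any 1 of the KO RNP libraries it was not tested under that filter, and with a filter of 2 libraries its adjusted p over the 6 fits that leave out a library was 0.00541 to 0.0160 (limma). Serpine2 had a log2 change of 0.14 (SE 0.10, adjusted p = 0.385, limma).

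**Figure D2:**
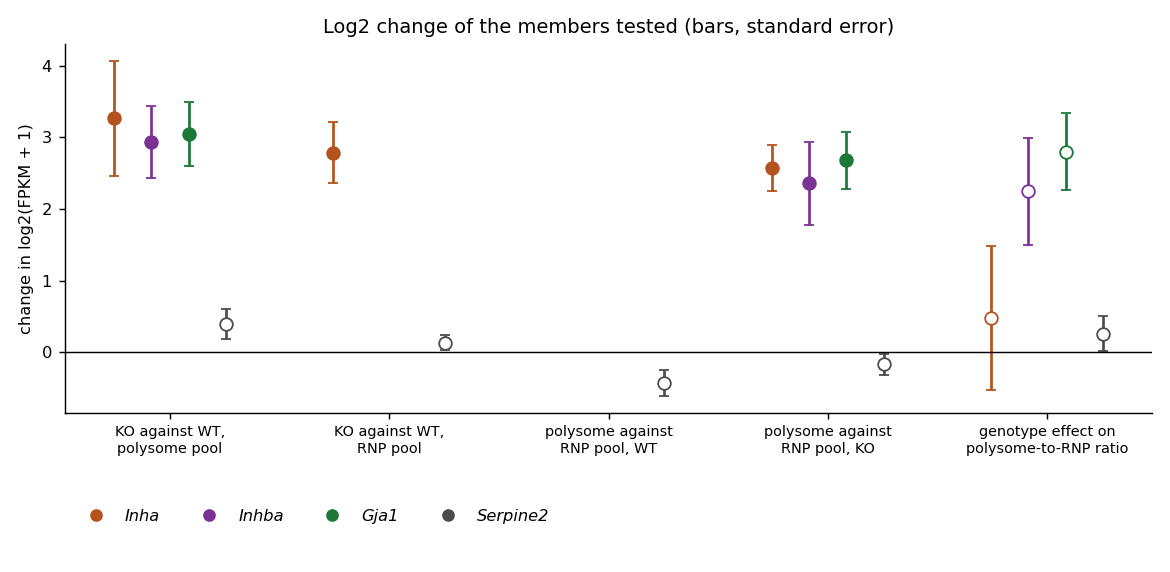
Log2 change of the 4 members that could be tested, by comparison, on the log2(FPKM + 1) scale. Bars are standard errors, filled points have an adjusted p under 0.05 and open points do not; in the polysome pool Inha, Inhba and Gja1 were higher in KO by 2.94 to 3.27, and Serpine2 lies within 0.43 of 0 throughout.

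Between the pools of WT oocytes, where 7.97% of 9574 genes were called higher in polysomes and 6.72% lower, Serpine2 was the only member tested. It had a log2 change of -0.43 from RNP to polysome (SE 0.18, adjusted p = 0.164, limma). Inha was at 1 FPKM or more in only 2 WT libraries and stayed out of the test.

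Between the pools of KO oocytes, 3 of the 4 members tested were higher in the polysome pool, against 15.5% of 9851 genes called higher and 13.8% called lower. Inha was higher by 2.57 on the log2 scale (SE 0.32, adjusted p = 0.000422, limma), and its mean FPKM was 6.24-fold that of the RNP pool. Gja1 was higher by 2.68 (SE 0.40, adjusted p = 0.00102, limma) and Inhba by 2.35 (SE 0.59, adjusted p = 0.0151, limma). Gja1 passed the filter through its polysome libraries alone. Serpine2 had a log2 change of -0.17 (SE 0.14, adjusted p = 0.422, limma). The Inhba call was lost without KO RNP library 1 (adjusted p = 0.0533) or 2 (adjusted p = 0.0558, limma). This comparison shares the KO polysome libraries with that of KO against WT in the polysome pool, so the changes of Inha, Inhba and Gja1 in both rest on the same 3 libraries.

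Whether the genotypes differed in the polysome-to-RNP ratio was tested by the interaction term, for which 0.0822% of 10949 genes were called higher and 0.155% lower. No member was called by limma, and 2 of the 4 tested had an unadjusted p under 0.05, Gja1 with 2.80 (SE 0.54, adjusted p = 0.0557) and Inhba with 2.25 (SE 0.74, adjusted p = 0.257, limma). Gja1 and Inhba entered this test through the KO libraries alone and were near 0 in both WT pools. Their terms therefore largely restate the changes between the KO pools. For Inha the term was 0.48 (SE 1.00, adjusted p = 0.904, limma), so a higher polysome share in KO than in WT was not detectable for the gene with the most reads of the 3. Without WT polysome library 2, where Inha was listed at 0, this term became -0.62, and it ranged up to 1.08 without other single libraries.

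Other follicle genes were read from lists of cell type markers. Of 20 granulosa and cumulus cell genes, 9 were below 1 FPKM in all 12 libraries, and 6 of these (Lhcgr, Ptx3, Tnfaip6, Slc38a3, Areg and Ereg) were listed at 0 in all of them. For comparison, 45.7% of all genes in the table were below 1 FPKM in every library, and 34.0% were listed at 0 in all 12. The highest of the list were Esr2 (estrogen receptor beta), Cyp19a1 (aromatase) and Gata4, at means of 61.9, 28.9 and 9.29 FPKM over the 12 libraries. The summed level of the 20 genes was 101 to 133 FPKM in WT RNP, 105 to 123 in KO RNP, 99.7 to 159 in WT polysome and 74.7 to 120 in KO polysome libraries. The sum in the KO polysome libraries thus overlapped that of every other group, but Esr2 and Cyp19a1 carried most of it. Esr2 was at 60.7 to 83.6 FPKM in WT polysome and 35.4 to 53.5 FPKM in KO polysome libraries, without overlap (log2 change -0.70, SE 0.22, adjusted p = 0.0755, limma), and the log2 change of Gata4 was 0.78 (SE 0.41, adjusted p = 0.266, limma). The median log2 change of the 6 genes of the list tested in the polysome pool was 0.34, against 0.10 for all genes. This median includes Fshr, which could enter the test only by being higher in KO, so the median is no support of its own. Of the 6 genes tested, 1 was called, as higher in KO, against 5.64% of 9536 genes called higher and 4.73% called lower. It was Fshr, the FSH receptor, at 0, 0 and 0.700 FPKM in WT and 4.36, 3.14 and 6.74 FPKM in KO polysome libraries (log2 change 2.22, SE 0.47, adjusted p = 0.0224, limma). Like Inhba and Gja1, it entered that test through the KO libraries alone. Unlike Inha and Gja1, Fshr was at its highest in the RNP pool, at 4.12 to 5.62 FPKM in WT and 7.57 to 13.6 FPKM in KO, and it was lower in polysomes than in RNPs of WT oocytes (log2 change -2.33, SE 0.47, adjusted p = 0.0127, limma), a test it entered through the RNP libraries alone.

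Markers of other ovarian cells were lower still. Of all genes in the table, 45.7% were below 1 FPKM in every library and 34.0% were listed at 0 in all 12. Of 12 theca and stroma genes, 8 were below 1 FPKM in all libraries, Star among them at 0 in all 12, and the list summed to 0.773 to 1.36 FPKM in WT RNP, 0.391 to 4.84 in KO RNP, 0 to 2.58 in WT polysome and 1.40 to 4.64 in KO polysome libraries. Of 11 endothelial, blood and immune genes, 7 were below 1 FPKM in all libraries, with Kdr, Hbb-b1, Hba-a1, Ptprc and C1qa listed at 0 in all 12. That list summed to 29.2 to 42.5 FPKM in WT RNP, 26.7 to 31.1 in KO RNP, 15.3 to 49.6 in WT polysome and 27.4 to 31.8 in KO polysome libraries, most of it Pecam1, at a mean of 25.0 FPKM over the 12 libraries. None of the few genes of these 2 lists that could be tested (3 or fewer per list and comparison) passed by limma in any of the 5 comparisons, and 1 had an unadjusted p under 0.05, in the comparison of the KO pools. The part of any of these cells in the changes of Inha, Inhba and Gja1 was not tested.

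**Figure D3:**
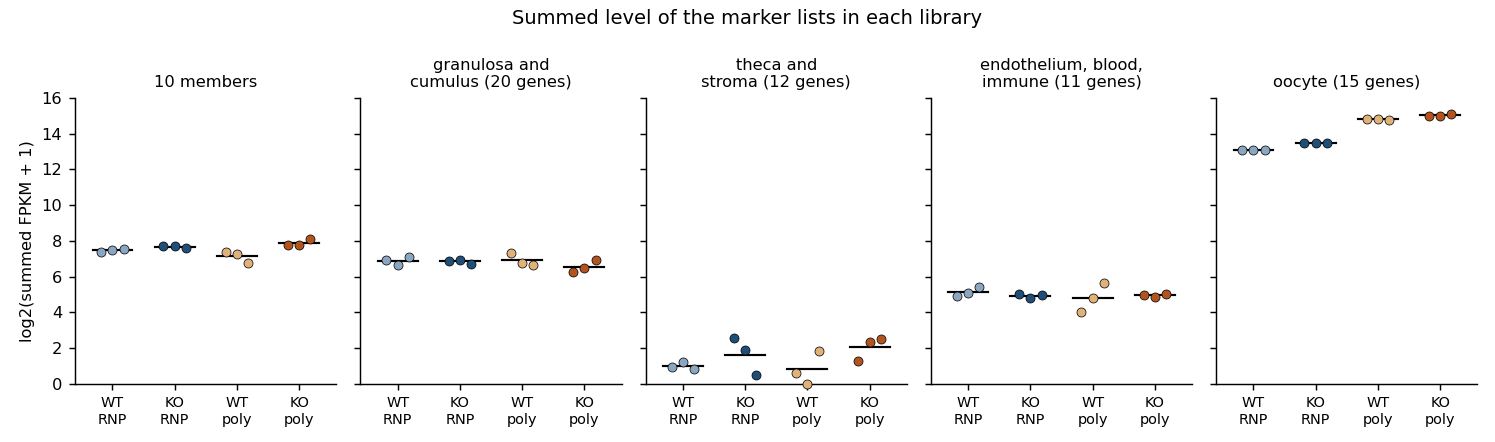
Summed level of each marker list in each library, as log2(summed FPKM + 1), by group. Points are libraries and bars group means; the granulosa and cumulus list overlaps between all groups (74.7 to 159 FPKM), theca and stroma stay below 4.85 FPKM, and the oocyte list is at 8523 FPKM or more.

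Genes that work with the members were read on the same terms. Of 19 activin and TGF-beta receptor and signalling genes, 14 were tested between genotypes in the RNP pool, with 1 higher in KO (Smad3, a transducer of activin signals, by 0.45, SE 0.14, adjusted p = 0.0496, limma) and 1 lower (Acvr1, a type I receptor, log2 change -2.21, SE 0.52, adjusted p = 0.0166, limma), against 10.5% and 10.2% of all genes tested. Of the libraries compared there, Acvr1 reached 1 FPKM only in those of WT, so it could enter that test only by being lower in KO. Of the 11 tested in the polysome pool none passed by limma, and 2 had an unadjusted p under 0.05. Smad3 was at 50.4 to 131 FPKM over the 12 libraries and was also higher in KO polysomes than in KO RNPs, by 0.61 (SE 0.13, adjusted p = 0.00658, limma). Bmpr1b, a receptor for BMPs, was at 25.7 to 52.2 FPKM, and was lower in KO polysomes than in KO RNPs (log2 change -0.56, SE 0.18, adjusted p = 0.0467, limma), as was Bmpr1a (log2 change -1.16, SE 0.38, adjusted p = 0.0494, limma). Fstl3, a follistatin-like activin antagonist, and Smad1 were lower in WT polysomes than in WT RNPs (log2 changes -2.48 and -2.30, SE 0.63 and 0.62, adjusted p = 0.0332 and 0.0392, limma). In WT polysome libraries 1 to 3 Fstl3 was at 4.22, 0 and 1.16 FPKM and Smad1 at 4.07, 0 and 2.38 FPKM. The zeros in library 2 are among the least certain values.

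Gja4, the connexin 37 gene of the oocyte side of the junction, moved the other way from Gja1. It was at 1634 to 1798 FPKM in WT RNP, 1078 to 1200 in KO RNP, 991 to 1194 in WT polysome and 598 to 656 in KO polysome libraries. It was lower in KO than in WT in polysomes (log2 change -0.79, SE 0.10, adjusted p = 0.00386, limma) and in RNPs (log2 change -0.57, SE 0.07, adjusted p = 0.000572, limma). Set against Gja4 in the same library, Gja1 was at 0% to 0.0170% of its FPKM in WT RNP, 0% in WT polysome, 0% to 0.0540% in KO RNP and 0.766% to 1.83% in KO polysome libraries. Thus, per length, connexin 43 mRNA did not exceed 1.83% of connexin 37 mRNA in any library. Cdh1 and Cdh2, the E- and N-cadherin genes, were lower in polysomes than in RNPs in both genotypes, with log2 changes of -0.79 and -1.74 in WT (SE 0.19 and 0.45) and -0.65 and -0.93 in KO (SE 0.15 and 0.26, adjusted p = 0.0111 to 0.0344 over the 4 tests, limma). Ctnnb1 (beta-catenin), which binds cadherins, was lower in WT polysomes than in WT RNPs (log2 change -0.87, SE 0.22, adjusted p = 0.0311, limma).

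Plat, the tissue-type plasminogen activator that protease nexin-1 inhibits, fell in KO in both pools while no change of Serpine2 passed the test. It was at 1555 to 1789 FPKM in WT RNP, 646 to 728 in KO RNP, 647 to 703 in WT polysome and 236 to 259 in KO polysome libraries. The log2 change was -1.41 in polysomes (SE 0.10, adjusted p = 0.000437, limma) and -1.28 in RNPs (SE 0.08, adjusted p = 1.91e-05, limma). Serpine2 was at 10.4% to 10.5% of the FPKM of Plat in WT RNP, 15.2% to 23.4% in WT polysome, 27.7% to 28.1% in KO RNP and 60.8% to 83.3% in KO polysome libraries, so the ranges of the 4 groups did not overlap.

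**Figure D4:**
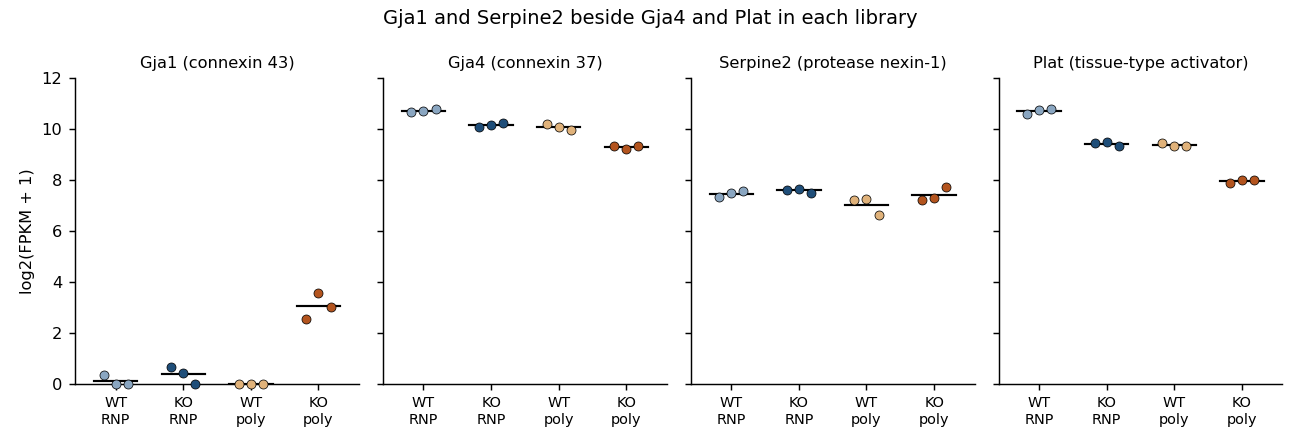
Level of Gja1, Gja4, Serpine2 and Plat in each library, as log2(FPKM + 1), by group (points, libraries; bars, group means). Gja4 and Plat are lowest in KO polysome libraries (598 to 656 and 236 to 259 FPKM), where Gja1 is highest (4.91 to 10.9 FPKM), while Serpine2 stays between 99.0 and 214 FPKM.

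Of 10 steroid synthesis genes, Hsd17b7, which encodes a keto-reductase of estradiol and cholesterol synthesis, was higher in KO polysomes (7.21, 15.5 and 15.2 FPKM in WT against 48.8, 57.2 and 74.6 in KO, log2 change 2.22, SE 0.33, adjusted p = 0.00615, limma). Scarb1, the HDL receptor that takes up cholesterol, was lower (26.1, 38.9 and 22.1 FPKM in WT against 9.69, 6.27 and 9.43 in KO, log2 change -1.65, SE 0.33, adjusted p = 0.0175, limma). The groups did not overlap for either gene, and the other 4 genes of the list tested in this comparison did not pass. Of all 9536 genes tested there, 5.64% were called higher and 4.73% lower. Among filament and matrix genes, Lamb1, a laminin beta chain, was lower in KO RNPs (log2 change -0.74, SE 0.17, adjusted p = 0.0149, limma), and Lmnb2, a nuclear lamin, was higher there by 1.27 (SE 0.36, adjusted p = 0.0336, limma). In the KO, Lmnb1 and Fn1 (fibronectin) were lower in polysomes than in RNPs (log2 changes -1.32 and -1.01, SE 0.34 and 0.30, adjusted p = 0.0172 and 0.0343, limma). Krt18, Krt19 and Des, filament genes like Vim, were listed at 0 in all 12 libraries, whereas Lmna was at 50.3 to 75.7 FPKM.

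The genes most like the members were sought by correlation with the mean log2(FPKM + 1) of the 10 genes, over 12 libraries and among 6678 other genes with a mean of 5 FPKM or more. The 5 highest were Snd1 (Pearson r = 0.966), Ypel2 (0.950), Chd9 (0.950), Actb (0.946) and Sqstm1 (0.946), a description only, since the 12 points fall into 4 groups and share their libraries with the profile. The profile follows mainly Inha, Inhba and Gja1, since the other members were near 0 in most libraries or, like Serpine2, changed little. Cyp11a1 ran the other way. Actb, the beta-actin gene, was at 140.0 to 158 FPKM in WT RNP, 251 to 294 in WT polysome, 208 to 216 in KO RNP and 671 to 723 in KO polysome libraries. Sqstm1, the p62 autophagy receptor gene, was at 18.9 to 26.8 FPKM in WT RNP, 43.1 to 72.5 in WT polysome, 56.0 to 75.0 in KO RNP and 148 to 207 in KO polysome libraries. For these 5 genes the KO polysome libraries were above all others, whereas WT RNP lay below all other libraries for Actb and Sqstm1 and overlapped WT polysome for Snd1, Ypel2 and Chd9.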

How the data were processed

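Per the labels and the study's methods, the authors mapped paired reads with TopHat2 2.0.13 (build mm10) and used Cufflinks 2.2.1 for the FPKM values. Cuffnorm and Cuffdiff are also named, and the scaling between libraries was not checked. The deposited table holds FPKM of 24259 genes in 12 libraries, and log2 fold changes, p-values and q-values of the authors' own comparisons, which were not used. Strand use is not given in the sources used here. Genes that reached 1 FPKM in 3 or more of the libraries compared were tested with limma 3.58.1 (R 4.3.3) on log2(FPKM + 1), with an intensity trend and Benjamini-Hochberg adjustment, and called at an adjusted p under 0.05. The fits were tested on simulated data, with changes put only into genes above a set mean level. Genes near 0 in most libraries, such as Inhba and Gja1, were not covered. Whole fragments per gene were estimated from the step between low values and RefSeq transcript lengths less 200 bases, with 67.0% to 77.6% of low values within 0.15 of a whole number. The members and the 10 other lists were chosen with earlier results of these data known. Named from the lists were genes called in any comparison (at most the 3 largest changes per list and comparison) and the 3 with the highest mean, except that 1 signalling gene is not reported here and that only the 3 highest genes of the oocyte list are named. Positions are from GENCODE M21 and promoters from RefSeq. Alternatives were pseudocounts of 0.1 and 5, no filter, a filter at 5 FPKM, median rescaling, quantile normalization, no trend, a replicate block and each library left out.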

Additional observations from a re-analysis of the deposited data

How the results depend on the processing

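Of the log2 changes of Inha, Inhba, Gja1 and Serpine2 in the comparisons where they were tested, 326 alternative values were computed; 301 kept their direction and their side of the threshold, 17 lost the call, 5 gained one and 3 reversed. The reversed values were all of the Inha interaction term, at -0.98 with a pseudocount of 0.1 and -0.62 without WT polysome library 2 under either filter, the range with a library left out being -0.62 to 1.08. For KO against WT in the polysome pool the count of members called higher, 3, became 1 with a filter at 5 FPKM and ranged from 0 to 3 when 1 library was left out. For the RNP pool, 1 became 0 with a filter at 5 FPKM and ranged from 0 to 1 with a library left out. A filter at 5 FPKM leaves fewer genes to test. For polysome against RNP in WT, 0 became 1 with no filter and ranged from 0 to 1 with a library left out, and in KO, 3 became 1 with a filter at 5 FPKM. For the interaction term, 0 became 1 (Gja1) with a pseudocount of 5, no filter, quantile normalization or no trend, and ranged from 0 to 1 with a library left out. Gja1 was near 0 in both WT pools, so its term rests mostly on the KO libraries. Inha in the polysome pool, KO against WT, had an adjusted p of 0.132 with a pseudocount of 0.1, 0.115 with no filter and 0.0909 with no trend (limma), against 0.00826 to 0.0333 under the others that keep all libraries. Inhba between the KO pools had an adjusted p of 0.0613 with no filter (limma). With the replicate number as a block, the count of members called was 3, 1, 0, 3 and 0 in the 5 comparisons, and no call of a member changed. Same-numbered libraries did not deviate together (correlations of -0.0207 to 0.0255 over 10949 genes). This cannot decide whether they share a lysate, since libraries all made from 1 lysate could also lack shared deviations.

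Limits lie in depth and method. Inhbb, Fst, Sparc, Cyp11a1 and Col4a1 mostly rest on few fragments, and 1 fragment of Inha was worth 0.0994 to 0.161 FPKM, so absence cannot be read from a value of 0. With 3 libraries per group, leaving 1 out left 2 in its group and fewer genes past the filter of 3 libraries.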
